A study of Mus musculus with 4 samples.

Results

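Fibroblast growth factors (FGFs) are secreted ligands that bind receptor tyrosine kinases on neighbouring cells, with heparan sulfate as co-factor, and act mainly through the MAPK/ERK cascade. In the developing face they carry signals between the surface ectoderm and the neural crest derived mesenchyme beneath it, and ectodermal Fgf8 is a classical patterning and survival signal for that mesenchyme. The chromatin around 6 ligand genes (Fgf8, Fgf9, Fgf10, Fgf15, Fgf17 and Fgf20) and 3 receptor genes (Fgfr1, Fgfr2 and Fgfr3) is described here. A peak was taken as belonging to a gene when its centre lay within 100 kb of the start site of the gene's principal GENCODE transcript on GRCm38. This rule gave 138 of 65467 control peaks and 5 of 3103 AP-2-dependent regions. No measured value entered the rule.

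Surface ectoderm was peeled from the facial prominences of E11.5 mouse embryos and profiled by ATAC-seq, in which a transposase cuts accessible DNA. EDKO embryos had the genotypes Tfap2a flox/flox and Tfap2b flox/flox together with Crect, a transgene that expresses Cre recombinase in early ectoderm under a regulatory element of Tfap2a, and so lost these AP-2 transcription factor genes in the ectoderm. Control littermates were Tfap2a flox/+ and Tfap2b flox/+ and had no Crect. All embryos of both groups thus carried floxed alleles of both genes, and the groups differed in the presence of Crect as well as in the number of floxed alleles. Each group had 2 libraries. The control peaks were called on both control libraries together, and the AP-2-dependent regions on both control libraries set against both EDKO libraries, so they are stretches where the signal was lower in EDKO. Because each list combines its libraries, there is no value per library, no spread between replicates and no test for any count or level below, and the lists give no number of reads for any library. What a peak has instead is its width, a summit −log10 p given by the peak caller, which is larger where the signal stands further above its background, and an area under the curve that sums this evidence along the peak.

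Open start sites matched the dissected tissue in part. A control peak lay within 1 kb of the start site of 9 of 10 epithelial marker genes (Grhl3 had none), with summit values from 6.77 at Krt8 to 12.4 at Esrp1. The mesenchymal markers had one at 5 of 6 genes (Col3a1 had none), with lower values (the highest per gene), from 3.78 at Prrx1 to 5.69 at Twist1. Neural markers had one at 4 of 4 genes, from 4.06 at Neurod1 to 8.38 at Tubb3, and blood and endothelial markers at 0 of 4. The share of all genes with a peak this close is not given here, so these counts have no background beside them. Whether cells other than ectoderm added to any FGF peak was not tested. The gene bodies of Tfap2a and Tfap2b held 7 and 13 control peaks and 1 AP-2-dependent region each. Whether these regions lie within the floxed exons was not tested. The combined lists allow no check of the deletion in single libraries.

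The 5 AP-2-dependent regions are the sequences on which the comparison with EDKO rests, and the summit of each is shown with 100 bases on either side, read from the GRCm38.p6 RefSeq assembly on the plus strand. AP-2 proteins bind the palindrome GCCNNNGGC, and p63, a master regulator of surface ectoderm, binds the p53 family motif. Capitals mark matches to GCCNNNGGC, to the same string with a spacer of 4 bases, or to the p53 family string. In these windows, the Fgf20 region held 1 p53 family string (bases 77 to 90 of the window), the Fgfr3 region held 1 AP-2 string with the longer spacer (bases 112 to 121) and 1 p53 family string (bases 160 to 173), and the others held none of these. Such windows held GCCNNNGGC in 22.7% of all 3072 AP-2-dependent regions on chromosomes. They held the longer spacer string in 17.6% and the p53 family string in 10.5%. Over their whole length, 29.7% of these 3072 regions held GCCNNNGGC.
Fgf17 region, chr14:70585742-70585942: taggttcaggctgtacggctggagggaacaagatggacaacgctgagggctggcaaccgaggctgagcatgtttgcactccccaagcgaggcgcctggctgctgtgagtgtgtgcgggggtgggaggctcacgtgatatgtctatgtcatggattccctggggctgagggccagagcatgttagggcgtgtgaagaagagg
Fgf20 region, chr8:40341881-40342081: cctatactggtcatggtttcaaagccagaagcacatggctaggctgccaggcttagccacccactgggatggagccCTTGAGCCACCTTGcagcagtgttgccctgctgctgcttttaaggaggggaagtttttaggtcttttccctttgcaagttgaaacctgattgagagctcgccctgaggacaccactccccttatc
Fgfr2 region nearer the gene, chr7:130328001-130328201: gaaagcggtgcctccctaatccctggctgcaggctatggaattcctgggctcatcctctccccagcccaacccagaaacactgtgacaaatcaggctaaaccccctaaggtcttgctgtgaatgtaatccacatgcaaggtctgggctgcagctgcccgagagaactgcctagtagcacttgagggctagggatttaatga
Fgfr2 region farther from the gene, chr7:130340611-130340811: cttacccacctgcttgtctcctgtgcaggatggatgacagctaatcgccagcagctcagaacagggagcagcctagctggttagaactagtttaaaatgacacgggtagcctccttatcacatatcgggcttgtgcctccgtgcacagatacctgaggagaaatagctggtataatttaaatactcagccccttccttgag
Fgfr3 region, chr5:33716641-33716841: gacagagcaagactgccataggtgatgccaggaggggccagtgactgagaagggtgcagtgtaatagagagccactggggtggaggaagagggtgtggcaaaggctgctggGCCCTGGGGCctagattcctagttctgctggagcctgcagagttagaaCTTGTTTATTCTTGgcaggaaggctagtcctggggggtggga
The Fgf17 region did hold GCCNNNGGC, but away from its summit: 2 matches lay 350 and 189 bases before it. The stretch with both, chosen after these values were seen, reads as follows.
Fgf17 region, stretch with both AP-2 strings, chr14:70585458-70585687: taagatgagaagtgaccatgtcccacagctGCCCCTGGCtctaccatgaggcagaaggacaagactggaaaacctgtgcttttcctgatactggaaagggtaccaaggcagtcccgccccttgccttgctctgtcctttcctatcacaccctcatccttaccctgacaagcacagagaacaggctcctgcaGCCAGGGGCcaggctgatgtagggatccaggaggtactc
Of the peaks over a start site or strongest at a gene, 17 in all, 3 had GCCNNNGGC within 100 bases of the summit. All 3 were over a ligand's own start site (Fgf8, Fgf9 and Fgf20) and overlapped no AP-2-dependent region, and the window of the Fgf9 peak is shown as an example.
Fgf9 start site peak, chr14:58072107-58072307: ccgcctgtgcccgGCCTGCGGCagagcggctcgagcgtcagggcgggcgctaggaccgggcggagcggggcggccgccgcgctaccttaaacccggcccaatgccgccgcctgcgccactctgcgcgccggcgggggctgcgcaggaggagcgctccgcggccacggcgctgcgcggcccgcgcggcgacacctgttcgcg

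Every one of the 9 start sites was covered by a control peak, and none of these 9 peaks overlapped an AP-2-dependent region. Of all control peaks at most 5 kb from a start site, 1.51% overlapped one. The share of all genes with a covered start site is not given here. Their summit values fell in the order Fgfr2 12.4, Fgfr1 10.5, Fgfr3 9.63, Fgf9 9.55, Fgf20 7.33, Fgf15 7.23, Fgf8 5.88, Fgf10 4.75 and Fgf17 3.97. The 3 receptors thus had the highest values and no ligand reached them, although Fgf9 came close to Fgfr3, and without replicates it cannot be said which neighbours in this order differ. Set against all control peaks centred at most 1 kb from a start site, the Fgfr2 peak was above 86.8% of them, those of Fgfr1, Fgfr3 and Fgf9 above 65.9%, 55.1% and 54.0%, and those of Fgf8, Fgf10 and Fgf17 above only 17.3%, 9.70% and 4.12%. Width did not follow the same order. The start site peaks of Fgf8 and Fgf9 spanned 3153 and 3332 bp, wider than 97.2% and 97.8% of such peaks, and that of Fgfr3 spanned 3888 bp, while that of Fgf17 spanned 1377 bp.

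**Figure D1:**
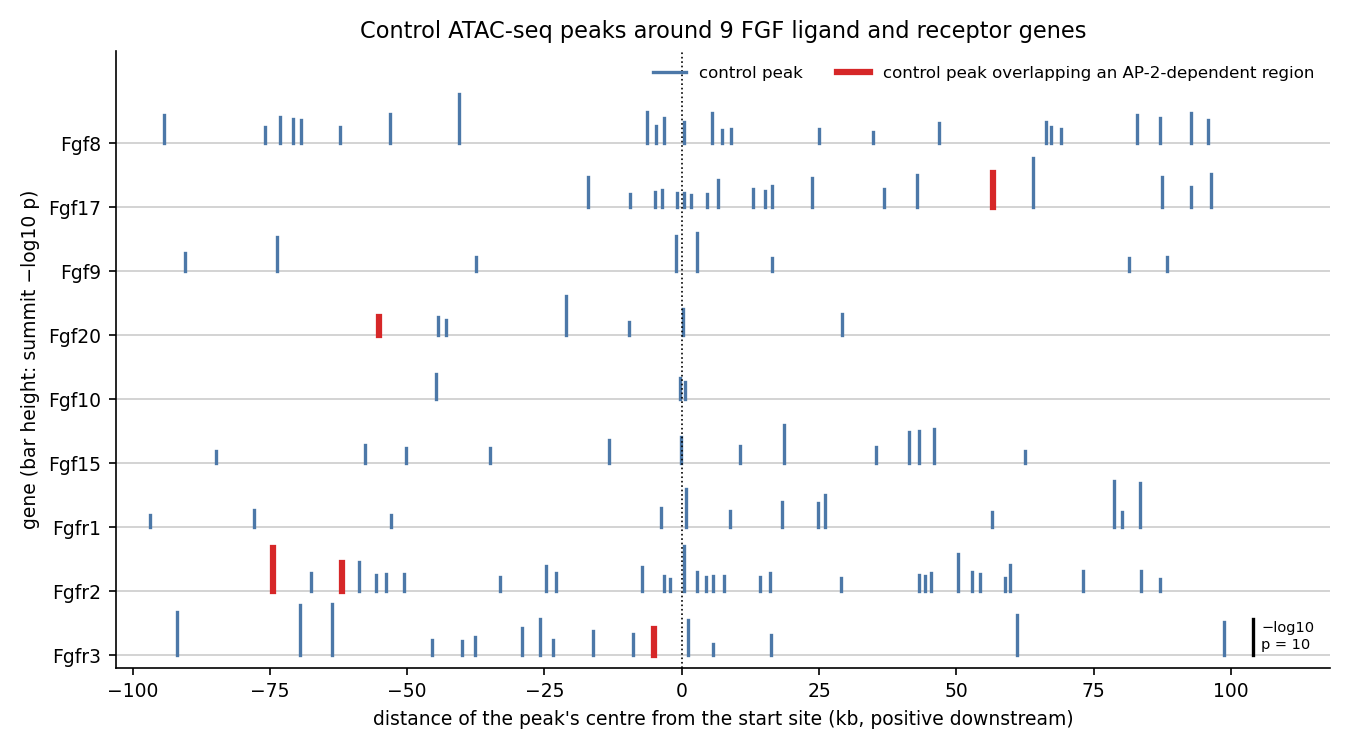
Control ATAC-seq peaks around the 9 genes. The horizontal axis is the distance of a peak's centre from the gene's start site in kb, positive downstream, each row is a gene, the height of a bar is the peak's summit −log10 p (black scale bar, 10), and red bars mark the 5 peaks that overlap an AP-2-dependent region. All 5 lie away from the dotted start site, the nearest at 5.06 kb (Fgfr3), and Fgf8, Fgf9, Fgf10, Fgf15 and Fgfr1 have none.

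The genes differed widely in how much open chromatin surrounded them. Fgfr2 had 32 control peaks, Fgf8 25, Fgf17 20, Fgfr3 17, Fgf15 and Fgfr1 13 each, Fgf9 8, Fgf20 7 and Fgf10 3, against a median of 8 over 21829 protein-coding genes, of which 99.4% had fewer than Fgfr2 and 19.0% fewer than Fgf10. Many of these peaks sat closer to another gene: 61 of 138 were nearest to the start site of a neighbour, and 77 to that of the FGF gene itself. Fgfr2 and Fgf10 were the exceptions. All 32 and all 3 of their peaks were nearest to their own start sites, and neither window held another start site. By contrast only 2 of 13 peaks were nearest to Fgf15, and 7 of 25 to Fgf8. Distal peaks, those more than 5 kb from every start site, made up 47 of 62 receptor peaks (75.8%, 95% Wilson interval 63.8 to 84.8) against 36 of 76 ligand peaks (47.4%, 36.5 to 58.4) and 70.0% of all control peaks. Among control peaks within 100 kb of any start site, a limit that all FGF peaks meet, the share was 62.6%. Fgfr2 alone gave 27 of the distal receptor peaks, and without it, an alternative chosen after seeing the data, the receptors had 20 of 30 (66.7%, 48.8 to 80.8). Fgfr1 had 8 distal peaks of 13, Fgf20 5 of 7 and Fgf9 5 of 8. Peaks of a gene share its neighbourhood, so these intervals cover counting error only, as do all intervals given here.

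**Figure D2:**
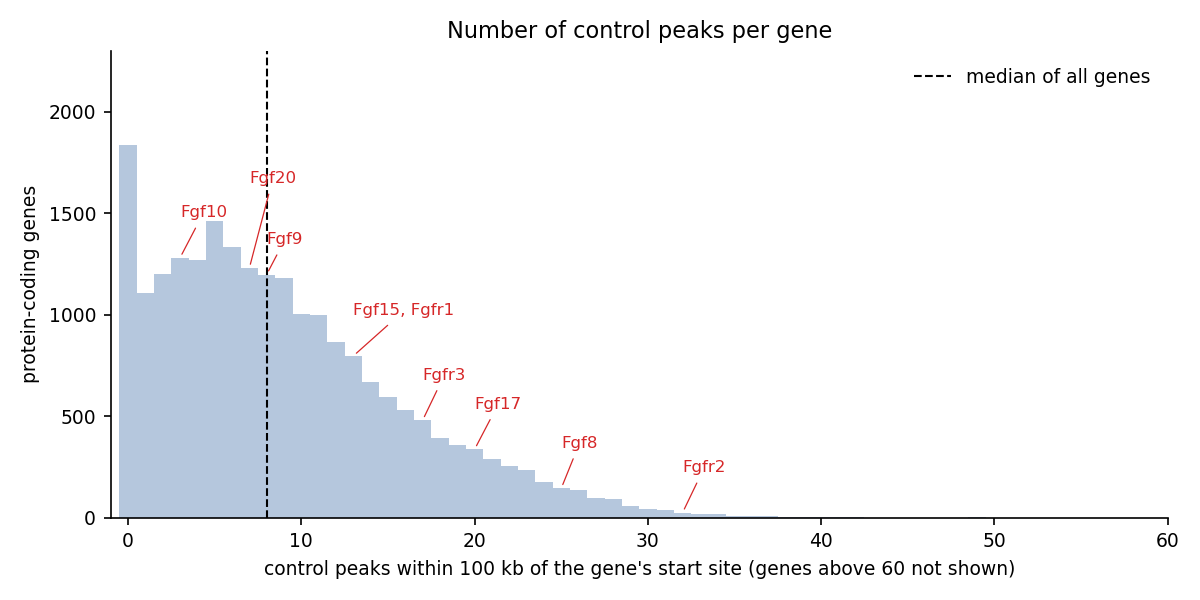
Histogram of protein-coding genes (vertical axis, number of genes) by the number of control peaks within 100 kb of the start site (horizontal axis), with the 9 FGF genes labelled and the median of 8 dashed. Fgf10, Fgf20 and Fgf9 lie at or below the median, and Fgf8 and Fgfr2, with 25 and 32 peaks, in its upper tail.

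Fgf8, the ectodermal ligand needed for survival of the facial mesenchyme, had peaks on both sides, 11 upstream and 14 downstream. Its start site peak lay in a run of 4 peaks from 6.25 kb upstream to 0.39 kb downstream, and a separate peak of summit value 8.27 covered the last coding exon, 5.48 kb downstream. The strongest peak of the window (13.5, 40.6 kb upstream) was at the start site of Mgea5, which encodes the enzyme that removes O-GlcNAc, and the next (8.55, 6.25 kb upstream) at that of Npm3, a histone chaperone gene. The third (8.35) lay 92.8 kb downstream in intron 1 of Fbxw4, whose introns are known to lie within the long-range regulatory landscape of Fgf8. Of the 25 peaks, 10 had their summit in the principal transcript of another gene and 2 in that of Fgf8. One weak peak 34.8 kb downstream (summit value 3.24) was repetitive sequence, with a median of 655 genomic copies of its 31-base words, and it was the only one of the 138 whose median exceeded 1 copy. No AP-2-dependent region lay in the window, and the nearest one was 117 kb upstream, just outside it.

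Fgf17, which belongs to the same subfamily as Fgf8, had the weakest start site of the 9 genes (3.97) within the longest uninterrupted cluster of the ligands, 8 peaks from 9.49 kb upstream to 6.60 kb downstream. Of the 7 peaks nearest to its start site, 6 had values from 3.32 to 4.69, and the other, 6.60 kb downstream and 2695 bp wide, reached 7.43. The 3 strongest of its 20 peaks were all far downstream, at the start of Nudt18 (13.5, 64.0 kb), in intron 14 of Fam160b2 (9.44, 56.7 kb) and near the start of Reep4 (9.06, 96.3 kb). The intron 14 peak, 1543 bp wide, overlapped the strongest AP-2-dependent region of the 9 genes, chr14:70585476-70586071. That region had an area of 1076, larger than 88.4% of all AP-2-dependent regions, a summit value of 6.84 and covered 38.6% of its control peak. Its nearest start site was that of Nudt18, 8.14 kb away, and not that of Fgf17, 56.5 kb away.

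Fgf9 and Fgf20 are members of 1 subfamily and both act from epithelium in several organs. Fgf9 had its own start site and its first intron as its strongest peaks, at 9.55 and 10.6, each more than 3 kb wide and with 7 and 4 GCCNNNGGC strings. A weaker peak (3.57) lay 16.4 kb downstream, and beyond it came a stretch of 65.1 kb without a centre of any peak. The nearest AP-2-dependent region was 439 kb upstream. Fgf20 had a start site peak of 7.33 with 3 GCCNNNGGC strings, and its strongest peak (10.7, 21.1 kb upstream) covered the start site of Micu3, a mitochondrial calcium uptake regulator transcribed away from it. A second annotated start site of Fgf20 lies 21.4 kb upstream of the one used, within the same peak. The Fgf20 region, chr8:40341920-40342267, lay 55.1 kb upstream in intron 3 of Micu3 and had an area of 406 and a summit value of 4.06. It covered 93.0% of a narrow control peak (374 bp, 5.14), the largest share among the 5.

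Fgf10, a ligand made mainly by mesenchyme that signals to epithelial Fgfr2, had only 3 peaks. A peak of 1416 bp covered its start site (4.75), a peak of 302 bp lay 0.317 kb upstream (5.86), and the strongest lay 44.7 kb upstream (6.90) over the first base of non-coding transcripts of the same gene. The higher of the values within 1 kb of the start site, 5.86, was above those of the mesenchymal marker genes, below those of the epithelial ones and inside the range of the neural ones. None of the 3 held GCCNNNGGC, and the nearest AP-2-dependent region was 882 kb away. Fgf15, an endocrine-type FGF that is also made in the embryo, lies beside Fgf3, Fgf4 and Ccnd1, the cyclin D1 gene. Its start site peak reached 7.23, and its strongest peaks belonged to neighbours: the start of LTO1 (10.5, 18.7 kb downstream) and the neighbourhood of Ccnd1 (9.35 at 45.9 kb and 8.69 at 43.2 kb). Only the start site peak and one 13.2 kb upstream (6.35) were nearest to Fgf15. Its nearest AP-2-dependent region was 445 kb away, with 86.9% of its bases marked as repeats.

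**Figure D3:**
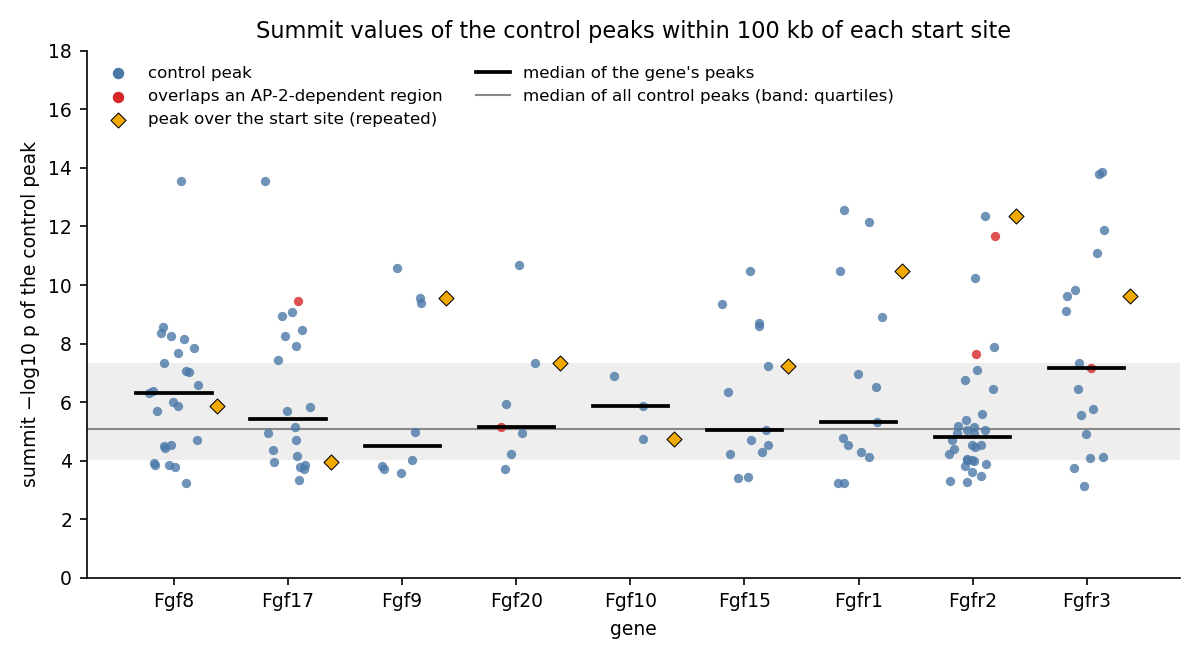
Summit −log10 p (vertical axis) of each control peak within 100 kb, by gene. Points are peaks, red where they overlap an AP-2-dependent region, black lines the median of each gene, diamonds repeat the start site peak, and the grey line and band give the median (5.10) and quartiles (4.07 and 7.29) of all control peaks. The start site peaks of Fgf8, Fgf10 and Fgf17 lie below the median of their own windows, and the median is highest at Fgfr3 (7.16) and lowest at Fgf9 (4.50).

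Fgfr1, the main FGF receptor of the facial mesenchyme that is also made in ectoderm, had 13 peaks. Its start site peak (10.5, 2214 bp) came in its window after the start of Letm2 (12.6, 78.6 kb downstream) and a peak inside the gene model of Nsd3 (12.2, 83.4 kb). Introns 1 and 2 held 4 further peaks, the highest 8.90 at 26.2 kb. Between 3.75 and 52.9 kb upstream no peak was centred. No AP-2-dependent region lay nearer than 1290 kb, the greatest distance of the 9 genes.

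Fgfr2, whose epithelial splice form is the receptor for Fgf10, had the densest set. The start site peak was the strongest (12.4, 2437 bp). It stood in a run of 8 peaks from 7.17 kb upstream to 7.71 kb downstream, and another run of 8 lay between 43.2 and 59.8 kb downstream in introns 5 and 6, led by a peak of 10.2 at 50.3 kb. In all, 18 of 32 summits lay in the principal transcript and 13 peaks were upstream of the start site. Of these, the strongest upstream peak (11.7, 74.5 kb, 2153 bp) and one in a run of 5 nearer the gene (7.66, 61.8 kb, 1110 bp) each overlapped an AP-2-dependent region. Both regions were small parts of their peaks. The farther one, chr7:130340619-130340865, covered 11.5% of its peak, with an area of 228 and a summit value of 4.87, and its summit stood 66 bp from that of the peak. The nearer one, chr7:130327944-130328237, covered 26.5%, with an area of 274 and a summit value of 4.14. Both lie between genes by their principal transcripts, although a single annotated Fgfr2 transcript starts far upstream and spans them. Neither region held GCCNNNGGC, but their control peaks did, with 1 match in the farther peak and 2 in the nearer one.

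Fgfr3, a receptor best known as a brake on bone growth and present in epithelia too, had 17 peaks with the highest median summit value (7.16). Its start site peak was the widest of the 9 (3888 bp, 9.63), and a distal peak of 3308 bp lay 25.8 kb upstream (9.84). The 3 strongest peaks were at start sites of other genes: Tacc3, a spindle protein gene (13.8, 63.6 kb upstream), Slbp, which encodes a histone mRNA binding protein (13.8, 69.5 kb) and Gm9903 (11.9, 91.9 kb). The Fgfr3 region, chr5:33716651-33716874, was the only one of the 5 close to its gene, with its centre 4.96 kb upstream between genes. It was also the weakest, with an area of 206, above only 2.64% of all AP-2-dependent regions and barely over the smallest area in the list (200.002), and a summit value of 3.63. It covered 51.6% of a control peak of 434 bp (7.16).

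**Figure D4:**
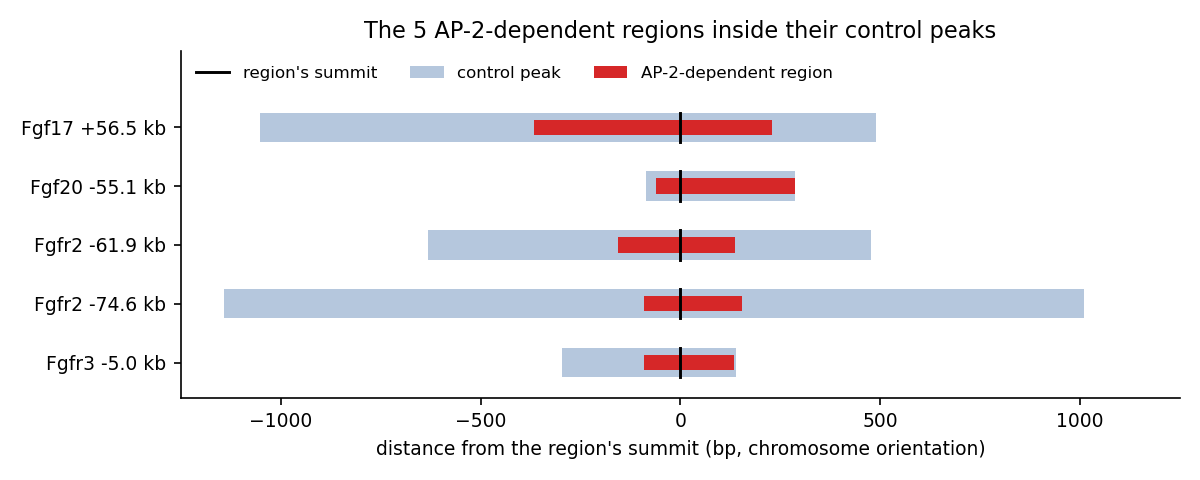
Extent of the 5 AP-2-dependent regions (red) inside the control peaks they overlap (blue), with the region's summit at 0 on the horizontal axis, in bp along the chromosome. The Fgf20 region takes up 93.0% of its peak and the farther Fgfr2 region 11.5%.

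**Figure D5:**
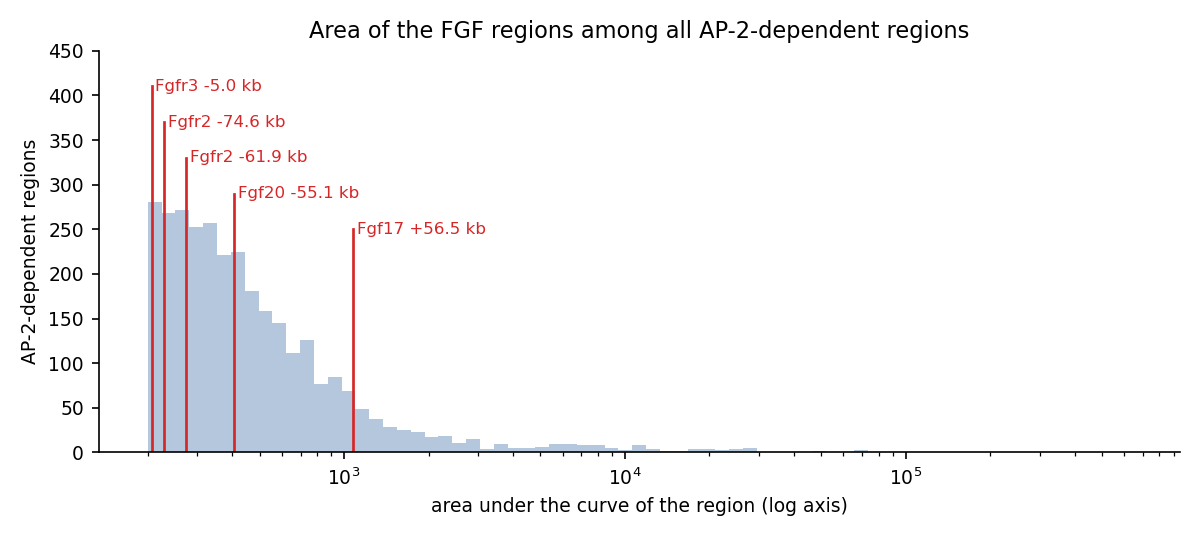
Area under the curve (horizontal, log axis) of all 3072 AP-2-dependent regions on chromosomes, as a histogram (vertical axis, number of regions), with the 5 FGF regions in red. The Fgf17 region (1076) lies in the upper part and the Fgfr3 region (206) at the lower end.

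Across the 9 genes, 5 of 138 control peaks overlapped an AP-2-dependent region (3.62%, 95% interval 1.56 to 8.20), against 4.47% of all 65298 control peaks on chromosomes and 3.65% of those within 100 kb of any start site. All 5 were distal, the Fgfr3 peak only just so at 5.06 kb, making 5 of 83 distal peaks (6.02%, 2.60 to 13.3) against 5.74% of all distal peaks. Of the 55 peaks closer to a start site none did, which allows a share of up to 5.45% when 3 counts are taken as the limit of a count of 0 (Wilson upper bound 6.53%), against 1.51% of all such peaks. Ligand peaks overlapped in 2 of 76 cases and receptor peaks in 3 of 62, with intervals of 0.725 to 9.10% and 1.66 to 13.3% that cover each other. By genes, 4 of 9 had at least 1 region within 100 kb, against 20.2% of all protein-coding genes. Genes with more peaks have regions more often: a region was present at 19.4% of genes with as many peaks as Fgf20, 33.1% as many as Fgfr3, 35.9% as many as Fgf17 and 52.0% as many as Fgfr2. Among genes with as many peaks as Fgf8, which had none, the share was 49.7%. For the other genes without a region it was 28.2% (Fgf15 and Fgfr1), 20.3% (Fgf9) and 7.97% (Fgf10). The share of FGF peaks that overlapped a region was thus close to the background, and the 5 control peaks involved, at 5.14 to 11.7, lay on both sides of 6.91, the median of all control peaks with a region.

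The peaks of the 9 genes had a median width of 678 bp against 560 bp for all control peaks. Their median summit value was 5.26 against 5.10, and their median GC content 54.2% against 51.8%. All FGF peaks lie within 100 kb of a start site by the rule used. Control peaks within that limit had a median width of 601 bp and a median summit value of 5.296. Their median GC content was 52.99%. Against this set the FGF peaks were still broader, but their median summit value was slightly lower. GCCNNNGGC occurred in 62 of 138 (44.9%, 36.9 to 53.3) against 32.4% of all control peaks and 35.4% of those within 100 kb of any start site. In windows of equal length, within 100 bp of the summit, the shares were 16.7% (11.4 to 23.8), 14.4% and 15.03%. The p53 family string was found in 31.9% of the FGF peaks and 21.5% of all, and near the summit in 10.1% (6.14 to 16.3) and 8.68%. The TEAD string GGAATG was in 49.3% of the FGF peaks and 39.3% of all, and near the summit in 17.4% and 17.9%. The CTCF string was in 7.97% and 7.61%, and near the summit in 5.80% and 6.21%. For the AP-2, p53 family and TEAD strings the difference from all control peaks was thus smaller in equal windows. Near the summit GCCNNNGGC was in 17 of 76 ligand peaks (22.4%, 14.5 to 32.9) and 6 of 62 receptor peaks (9.68%, 4.51 to 19.5). GCCNNNGGC reads the same on both strands, and the other strings were searched on both. In the 300 bases around the start site, from 250 before to 50 after it, 1 of 9 genes held GCCNNNGGC, namely Fgf8 with 4 matches, against 19.1% of all genes.

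The rest of the FGF pathway was read from a list of 37 genes, of which 36 had a start site (Spry3 was not among the genes used). Of the 36 genes, 11 had an AP-2-dependent region within 100 kb, beside 20.2% of all protein-coding genes. No share among genes with as many peaks is given for this list. Of the 344 control peaks of these genes, 16 overlapped a region (4.65%, 2.88 to 7.42). The share was 4.47% for all control peaks and 3.65% for those within 100 kb of any start site, a limit these peaks meet. Both of these shares lie inside the interval. Among 16 other genes of the FGF family, not all of them ligands of these receptors, 4 had a region. Fgf1, a ligand for all FGF receptors, had 4 regions, the largest with an area of 1113 at 71.8 kb upstream. Fgf11, Fgf14 and Fgf22 had 1 each. The largest Fgf1 region was nearest to the start site of Arhgap26, and the Fgf11 and Fgf22 regions to those of Tnk1 and Fstl3. Of 4 other receptors and co-receptors only Kl, the Klotho co-receptor gene, had a region, 43.9 kb downstream. Of 2 carriers Fgfbp3 had 1 at 6.41 kb, and of the adaptor genes Frs2 and Frs3 neither did. Among 12 target and feedback genes 5 did. Spry1, an inhibitor of receptor tyrosine kinase signalling, had 3, the highest with a summit value of 7.81 at 14.2 kb downstream. Dusp6, the ERK phosphatase gene, had 1 at 1.76 kb, the closest in this list to the start site of its own gene. Spry4, Spred1 and Etv1 had 1 each, while Spry2, Etv4 and Etv5 had none.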

How the data were processed

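Per the study's methods, the authors trimmed reads with NGmerge, aligned them to mm10 with Bowtie2, keeping up to 10 alignments per read, and ran Genrich with its ATAC-seq option to call peaks. Each deposited list combines libraries (2 control, or 2 control against 2 EDKO) and gives each peak a peak score (capped at 1000), an area score and the summit −log10 p, without counts or depth per library. From these deposited values the peaks near each gene were counted on the 21 chromosomes with Python 3.11.15 and numpy 2.4.6. Start sites came from GENCODE vM21 (principal APPRIS transcript, 1 gene per symbol), and overlap meant at least 1 bp, a rule checked against bedtools 2.31.1 on simulated intervals. A run is a set of peaks with consecutive centres at most 5 kb apart. Strings were searched in the GRCm38.p6 RefSeq sequence. The genes and lists were chosen with earlier results of these data known. Named were the 9 genes, all their AP-2-dependent regions, the peak nearest each start site, the 3 strongest peaks per gene, and neighbours of these. Other peaks and genes were named after their values were seen. The alternatives changed the window, start site, area minimum, overlap, assignment and string, and 1 chosen after seeing the data left out the peaks of Fgfr2. No gene expression or histone data were used here. The sequence of a further start site peak is not reported here.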

Additional observations from a re-analysis of the deposited data

How the results depend on the processing

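Of 27 alternatives over 8 results, 12 stayed within 1.5 times the count or within the interval of the share or median, and 15 moved. With a window of 50 kb the control peaks fell to 83, the AP-2-dependent regions and the genes with one to 1 each (Fgfr3), and the share of peaks overlapping a region to 1.20%. A window of 250 kb gave 222 control peaks. Requiring an area of at least 500 left 1 region at 1 gene (Fgf17), a share of 1.01%, a median summit value of 6.75 and GCCNNNGGC in 54.5% of the peaks left. The area sums along a peak, so this minimum acts on width as well as on strength. The share of the peaks left with the string within 100 bp of the summit is not given here. Counting only peaks nearest to the gene gave 77 control peaks and 2 genes with a region (Fgfr2 and Fgfr3). An overlap required to cover most of both intervals (at least 50% of each) gave a share of 1.45%. The share of all control peaks under these settings is not given here, so these shares cannot be set against the 4.47% of the main setting. The median area of all AP-2-dependent regions was 394, below the minimum of 500. The AP-2 string was in 34.8% of peaks with a spacer of 4 bases and in 16.7% when searched within 100 bp of the summit, a shorter stretch. The cause of these shifts was not tested. No paired analysis was possible because the lists hold no value per library, and for the same reason no library could be left out. The lists hold no read counts, so a region too weak to be called cannot be told apart from one that did not change.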

Other observations

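Under an assignment that gives a region to the genes whose basal domain, extended by up to 1000 kb, contains it, 3 of the 9 genes had AP-2-dependent regions, and they were not the same as in the 100 kb window. Fgf9, the epithelial ligand, gained 1 region 512 kb downstream (summit value 4.96, area 433), in a stretch with no nearer start site than its own. Fgfr2 had 4: those described above and others 279 and 291 kb downstream (areas 465 and 242). Fgfr3 kept its region, whereas the regions in Micu3 and Fam160b2 were no longer assigned to Fgf20 and Fgf17. None of the 3 added regions held GCCNNNGGC.

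At the edge of the 100 kb window the last peak counted lay 98.7 kb downstream of Fgfr3 (summit value 9.13) and the first one not counted lay 103 kb from Fgf9 (5.12). Neither overlapped an AP-2-dependent region.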
